A study of Mus musculus with 12 samples.

Results

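The genes described here are the Toll-like receptors of microglia, the resident macrophages of the brain, and their co-receptor Cd14. The 10 members were taken by gene symbol from the 46262 genes of the deposited table, and the values of their transcripts were summed per gene. Cell surface members (Tlr1, Tlr2, Tlr4, Tlr6 and Cd14, 5 genes) were kept apart from endosomal members (Tlr3, Tlr7, Tlr8, Tlr9 and Tlr13, 5 genes). RNA was measured in 12 libraries of wild-type (WT) primary mouse microglia from mixed glial cultures, in 4 groups of 3. The groups were cerebellar microglia with IL-34 at 100 ng/ml, cerebellar microglia with CSF-1 at 20 ng/ml, forebrain microglia with IL-34 at 100 ng/ml and forebrain microglia with CSF-1 at 20 ng/ml, each for 24 h. IL-34 and CSF-1 are the ligands of the receptor CSF1R, on which microglia depend. All groups received a ligand, so no group shows the level without one, and the doses of the ligands differed. No Toll-like receptor agonist is named in the labels. The age of the mice is not given in the labels, and the deposited table calls the cells neonatal. The design text describes the cultures within a group as independent, and p-values measure the spread between these cultures.

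Toll-like receptors bind conserved molecules of microbes and of damaged cells and signal through adaptor proteins that carry a TIR domain, chiefly MyD88 and TRIF, to NF-kB and to interferon regulatory factors. Receptors for bacterial lipids and lipoproteins act at the plasma membrane, and receptors for nucleic acids act in endosomes, which they reach with the chaperone UNC93B1 and where proteases trim them. In the brain, microglia are the main cells that carry these receptors. Mice have working genes for TLR11, TLR12 and TLR13, which humans lack.

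The values are TPM, a transcript's share of its library per 1000000, corrected for transcript length. Levels of different genes can therefore be set side by side, but depth is unknown. The libraries held 11740 to 11904 genes at 1 TPM or more. The summed TPM of 15 microglial marker genes lay between 10020 and 10673 in every library, with Siglech as the single marker under 1 TPM throughout. In these bulk samples fewer cells of a type and less RNA per cell cannot be told apart. Summed TPM of 10 border macrophage markers was 2216 to 2460 in cerebellum with IL-34, 1825 to 2097 in cerebellum with CSF-1, 1936 to 2228 in forebrain with IL-34 and 1895 to 2056 in forebrain with CSF-1. Of these 10 genes only Lyve1 and Cd163 were under 1 TPM in every library, and the others reached that level. Astrocyte markers (10 genes) summed to 16.7 to 21.5 TPM in the cerebellar libraries and 30.5 to 34.3 TPM in the forebrain libraries. Mesenchymal markers (8 genes) summed to 4.73 to 7.83 TPM in the cerebellar libraries and 11.5 to 19.0 TPM in the forebrain libraries. Monocyte, neutrophil and dendritic cell markers (12 genes) summed to 3.08 to 4.79 TPM in the cerebellar libraries and 5.002 to 8.11 TPM in the forebrain libraries, with S100a8 and S100a9 at 0. Neuron markers (8 genes) summed to 0.684 to 1.96 TPM in the cerebellar libraries and 2.65 to 6.85 TPM in the forebrain libraries. Oligodendrocyte lineage markers (10 genes) ran the other way, at 138 to 152 TPM in cerebellum and 125 to 136 TPM in forebrain with IL-34, and 166 to 173 TPM in cerebellum and 131 to 153 TPM in forebrain with CSF-1. These lists moved with region, apart from the border macrophage list, whose regions overlapped under each ligand. In cerebellum the border macrophage, astrocyte, mesenchymal and oligodendrocyte lineage lists also moved with ligand, without overlap. There astrocyte markers summed to 16.7 to 17.2 TPM with IL-34 and 18.5 to 21.5 TPM with CSF-1. Mesenchymal markers summed to 4.73 to 5.19 TPM with IL-34 and 6.26 to 7.83 TPM with CSF-1 there. The part of these lists in the differences given below was not tested. Short transcripts, under 600 nt, took up 2.58, 3.31 and 0.947% of TPM in cerebellum with IL-34, while no other library exceeded 0.555% (lowest 0.0269%). The members' transcripts are long, and values from long transcripts alone are given beside the results this touches.

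Levels within the family ranged widely. Averaged over the 12 libraries, Cd14 had 999 TPM and was rank 93 among all genes, followed by Tlr13 (237 TPM), Tlr2 (153 TPM), Tlr7 (106 TPM), Tlr4 (83.2 TPM), Tlr8 (40.4 TPM), Tlr3 (23.4 TPM), Tlr1 (22.5 TPM), Tlr6 (10.04 TPM) and Tlr9 (0.783 TPM). Most neighbours in this order did not overlap over the 12 libraries. Tlr3 (18.1 to 26.7 TPM) and Tlr1 (18.4 to 26.4 TPM) did, and so did Tlr2 (119.8 to 197 TPM) and Tlr7 (82.5 to 123 TPM), and Tlr7 and Tlr4 (71.0 to 96.3 TPM). Among the mouse receptors outside the members, Tlr5, the receptor for flagellin, reached 0.380 TPM at most, Tlr11 0.134 TPM and Tlr12 0.0326 TPM. Tlr13, a sensor of bacterial ribosomal RNA, made up 54.4 to 60.7% of the endosomal receptor TPM in every library.

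**Figure D1:**
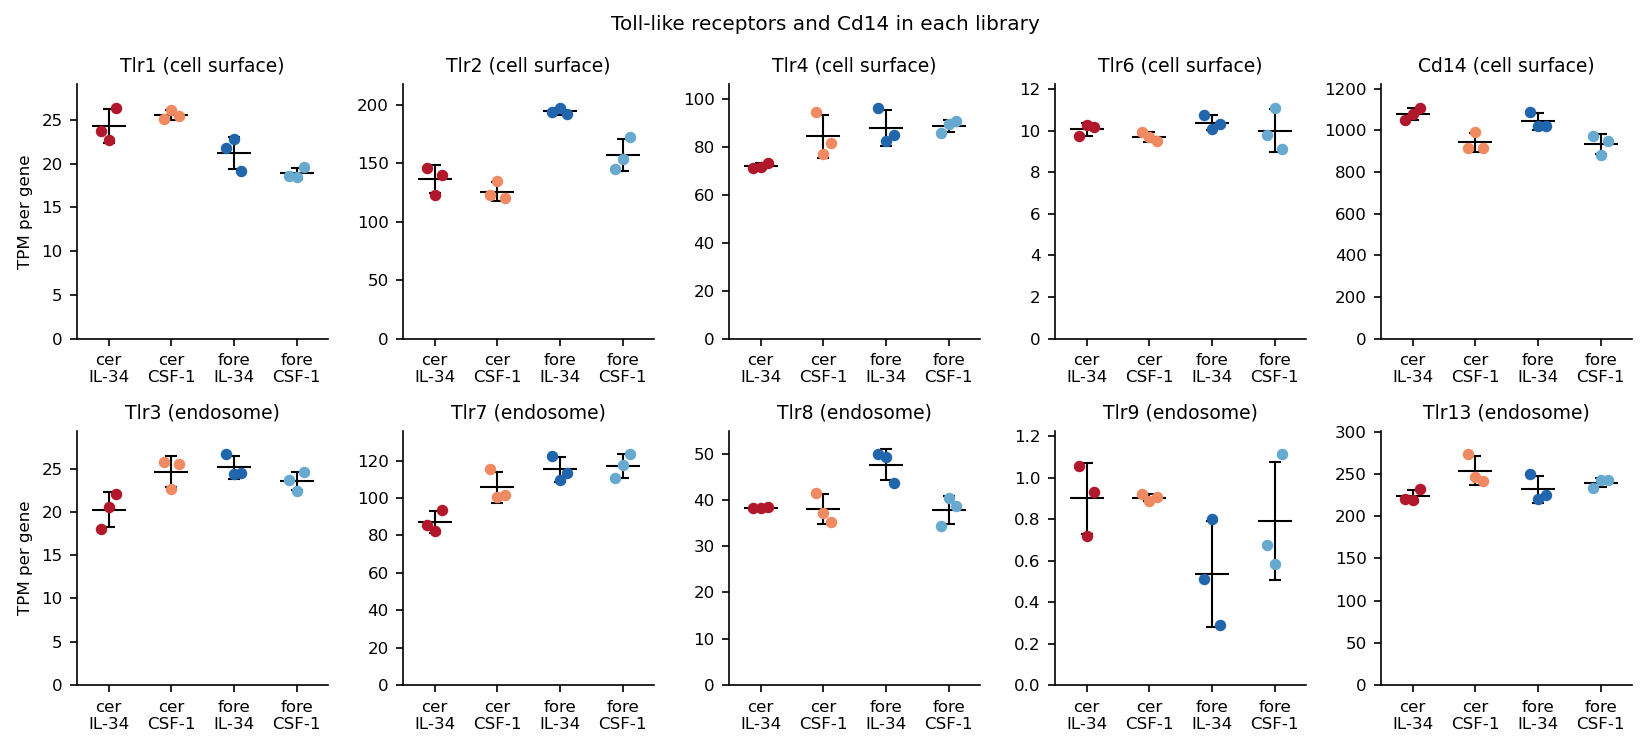
TPM of each member in each library, cell surface members above and endosomal members below, with the 4 groups along the horizontal axis of each panel; points are libraries, bars are the mean and SD of 3. Tlr2 sits highest in forebrain with IL-34, at 192 to 197 TPM, while Tlr6 differs little between groups. Group means of Tlr13 run from 224 TPM in cerebellum with IL-34 to 254 TPM in cerebellum with CSF-1.

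The first comparison asks how cerebellar microglia differ from forebrain microglia when both are kept in IL-34. Tlr2, Tlr4, Tlr3, Tlr7 and Tlr8 fell in cerebellum, and no member rose. With limma on log2(TPM + 1) and Benjamini-Hochberg adjustment over 12419 genes, called at an adjusted p under 0.05, 5 of the 9 members tested passed, against 13.5% of all genes (5.27% higher and 8.22% lower). By place of action, 2 of 5 cell surface members and 3 of 4 endosomal members were lower. The median log2 fold change of the 9 members was -0.28, beside -0.02 over all genes. Tlr9 did not reach the level required for testing (at least 1 TPM in at least 3 libraries): it had at least 1 TPM in 2.

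Tlr2, which pairs with TLR1 or TLR6 to bind bacterial lipoproteins (ENSMUSG00000027995, GRCm38 chromosome 3, 83836272 to 83841767, minus strand), had 146, 123 and 140 TPM in cerebellum with IL-34 and 122, 135 and 119.8 TPM in cerebellum with CSF-1. It had 193, 197 and 192 TPM in forebrain with IL-34 and 145, 154 and 172 TPM in forebrain with CSF-1. All forebrain libraries with IL-34 stood above every other library, and under each ligand the cerebellar and forebrain libraries did not overlap. With IL-34 the log2 fold change of cerebellum against forebrain was -0.51 (SE 0.08, limma adjusted p = 0.00218), so Tlr2 fell by 29.9% in cerebellum. With CSF-1 it was -0.32 (SE 0.08, adjusted p = 0.0367), where Tlr2 fell by 19.6%. The IL-34 difference held when any single library was left out (adjusted p 0.00162 to 0.0111). The CSF-1 difference lost its call without cerebellum CSF-1 replicate 1 or 3 (-0.30 and -0.28, adjusted p = 0.106 and 0.104), without forebrain CSF-1 replicate 2 or 3 (-0.33 and -0.25, adjusted p = 0.0745 and 0.110), and without forebrain IL-34 replicate 2 or 3 (adjusted p = 0.0553 and 0.0510).

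Tlr7, an endosomal receptor for single-stranded RNA (ENSMUSG00000044583, chromosome X, 167304929 to 167330558, minus strand), had 85.6, 82.5 and 93.6 TPM in cerebellum with IL-34 and 115, 101 and 101 TPM in cerebellum with CSF-1. It had 123, 109.6 and 114 TPM in forebrain with IL-34 and 111, 118 and 123 TPM in forebrain with CSF-1. The cerebellar IL-34 libraries were the 3 lowest of the 12. Cerebellum against forebrain with IL-34 gave -0.40 (SE 0.07, limma adjusted p = 0.00568), which held in each of the 12 fits with 1 library left out (adjusted p 0.00421 to 0.0296). With CSF-1 the difference was -0.15 (SE 0.07, adjusted p = 0.258), and the cerebellar and forebrain libraries overlapped. With length and GC trends removed the CSF-1 difference of Tlr7 was also -0.15 and passed (adjusted p = 0.0201).

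Tlr8 lies 40.6 kb from Tlr7 on chromosome X (ENSMUSG00000040522, 167242696 to 167264329, minus strand), is also an endosomal receptor, and shares no run of 31 bases with it. It had 38.2, 38.2 and 38.5 TPM in cerebellum with IL-34 and 41.5, 37.1 and 35.3 TPM in cerebellum with CSF-1, against 49.9, 49.3 and 43.7 TPM in forebrain with IL-34 and 34.4, 40.4 and 38.6 TPM in forebrain with CSF-1. Forebrain libraries with IL-34 stood apart above the other 9, which shared one range. Cerebellum against forebrain with IL-34 gave -0.31 (SE 0.08, limma adjusted p = 0.0303), and with CSF-1 0.01 (SE 0.08, adjusted p = 0.974). Of its transcripts, ENSMUST00000049023 had 20.6 ± 1.86 TPM in forebrain with IL-34 and between 12.8 ± 2.85 and 14.6 ± 4.94 TPM in the other groups (mean ± SD, n = 3 in each group), while ENSMUST00000112170 lay between 23.4 ± 5.40 and 27.0 ± 1.74 TPM. The split between transcripts of one gene is an estimate of the counting program and was not tested.

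Tlr4, the receptor for lipopolysaccharide (ENSMUSG00000039005, chromosome 4, 66827584 to 66930284, plus strand), had 71.0, 71.5 and 73.1 TPM in cerebellum with IL-34 and 94.3, 76.9 and 81.7 TPM in cerebellum with CSF-1. It had 96.3, 82.4 and 84.8 TPM in forebrain with IL-34 and 85.9, 89.3 and 90.9 TPM in forebrain with CSF-1. The 3 cerebellar IL-34 libraries were the lowest of all, and their difference from forebrain with IL-34 was -0.28 (SE 0.08, limma adjusted p = 0.0361). Tlr3, an endosomal receptor for RNA duplexes (ENSMUSG00000031639, chromosome 8, 45395665 to 45411080, minus strand), had 18.1, 20.6 and 22.1 TPM in cerebellum with IL-34 and 25.8, 22.6 and 25.6 TPM in cerebellum with CSF-1, against 26.7, 24.4 and 24.4 TPM in forebrain with IL-34 and 23.7, 22.4 and 24.6 TPM in forebrain with CSF-1. Again the cerebellar IL-34 libraries were the 3 lowest, at -0.30 against forebrain with IL-34 (SE 0.09, adjusted p = 0.0391). With CSF-1 the regional differences were -0.08 for Tlr4 (adjusted p = 0.605) and 0.06 for Tlr3 (adjusted p = 0.727). An antisense gene, Gm45542, overlaps Tlr3 over 698 bases and was listed at 0, and without strand information reads of the 2 genes cannot be told apart.

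The calls of Tlr4, Tlr8 and Tlr3 were lost when certain single libraries were left out. Tlr4 lost its call without cerebellum IL-34 replicate 1, 2 or 3 (adjusted p = 0.0973, 0.104 and 0.0570) or forebrain IL-34 replicate 1 or 3 (adjusted p = 0.111 and 0.0654). Tlr8 lost it without cerebellum IL-34 replicate 1, 2 or 3 (adjusted p = 0.0802, 0.0894 and 0.0555) or forebrain IL-34 replicate 1 or 2 (adjusted p = 0.0897 and 0.0952). Tlr3 lost it without cerebellum IL-34 replicate 1 or 2 (adjusted p = 0.130 and 0.0923), without forebrain IL-34 replicate 1, 2 or 3 (adjusted p = 0.112, 0.0739 and 0.0733), and without cerebellum CSF-1 replicate 3 or forebrain CSF-1 replicate 1 (adjusted p = 0.0515 and 0.0530). In a fit on transcripts of 1000 nt or more, from which trends along length and GC content were removed library by library, Tlr2 (-0.45), Tlr7 (-0.24), Tlr3 (-0.18) and Tlr4 (-0.15) still passed and Tlr8 (-0.13, adjusted p = 0.209) did not.

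**Figure D2:**
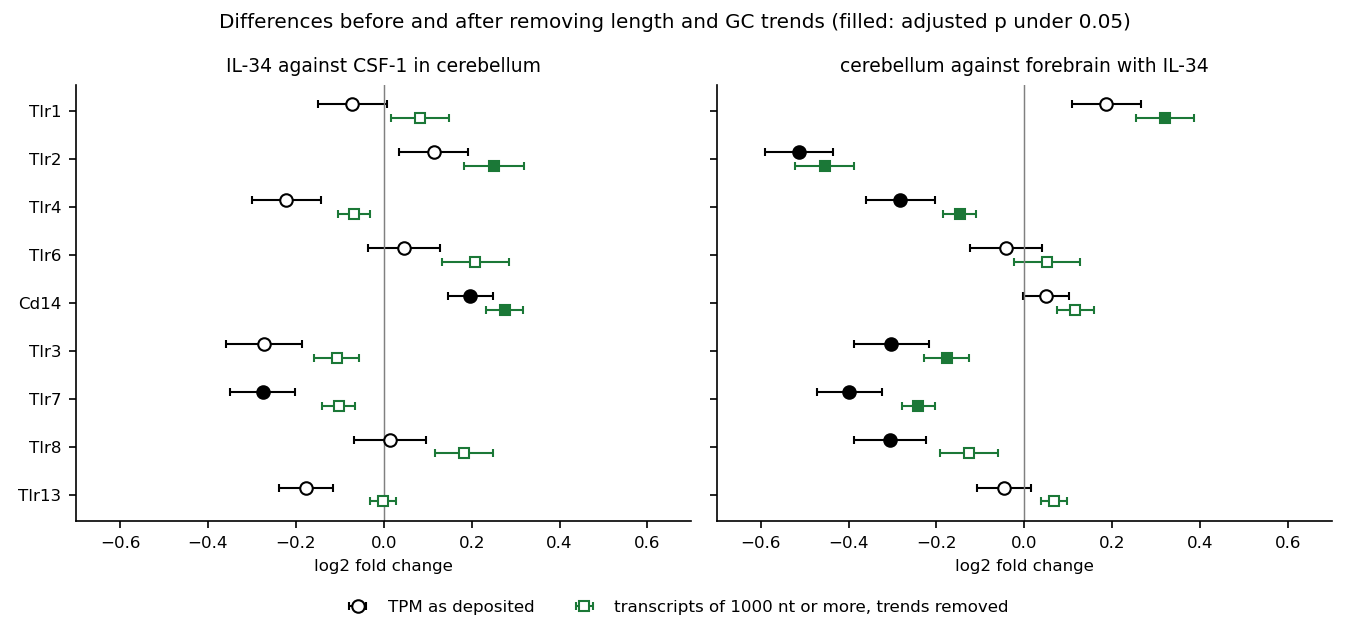
Log2 fold changes with standard errors for the 9 members tested, as deposited (circles) and from transcripts of 1000 nt or more with length and GC trends removed (squares); filled symbols passed at an adjusted p under 0.05. In the comparison of regions with IL-34, Tlr7 is at -0.40 as deposited and -0.24 with trends removed, Tlr8 at -0.31 and -0.13, and Tlr2 at -0.51 and -0.45.

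With CSF-1, cerebellar and forebrain microglia differed in 2 members, against 6.71% of all genes (3.29% higher and 3.42% lower): Tlr1 was higher in cerebellum and Tlr2, described above, was lower. Tlr1, which forms a receptor for triacylated lipoproteins with TLR2 (ENSMUSG00000044827, chromosome 5, 64924679 to 64933563, minus strand), had 23.8, 22.7 and 26.4 TPM in cerebellum with IL-34 and 25.1, 26.1 and 25.5 TPM in cerebellum with CSF-1. It had 21.8, 22.8 and 19.2 TPM in forebrain with IL-34 and 18.6, 18.4 and 19.6 TPM in forebrain with CSF-1. The CSF-1 libraries of the 2 regions did not overlap, and those with IL-34 did. The log2 fold change with CSF-1 was 0.42 (SE 0.08, limma adjusted p = 0.00984), or 33.6% higher, and it held in all 12 fits that left out 1 library (adjusted p 0.00744 to 0.0447). With IL-34 it was 0.19 (SE 0.08, adjusted p = 0.141), and 0.32 (adjusted p = 0.00483) with length and GC trends removed. With CSF-1, Tlr1 was the single member called higher in cerebellum, and its partner Tlr2 the single one called lower.

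Tlr6, the partner of TLR2 for diacylated lipoproteins, is the neighbour of Tlr1, 18.5 kb away (ENSMUSG00000051498, chromosome 5, 64952031 to 64960097, minus strand). Its groups averaged 10.1 ± 0.297 TPM in cerebellum with IL-34, 9.71 ± 0.232 TPM in cerebellum with CSF-1, 10.4 ± 0.355 TPM in forebrain with IL-34 and 10.01 ± 1.02 TPM in forebrain with CSF-1, and no difference passed in any comparison (log2 fold changes between -0.04 and 0.05, SE 0.08 in the comparisons within a region or a ligand). These genes are copies of one another: 19.5% of the runs of 31 bases in Tlr1 transcripts also occur in Tlr6, and the longest shared stretch holds 229 identical bases within the coding sequence of both. It is printed below with 10 bases on either side, because reads from it cannot be assigned to one gene by sequence (GENCODE M21 transcripts, sense strand; the bases that differ are in capitals). The Tlr1 stretch is chr5:64925527-64925775 and the Tlr6 stretch chr5:64953818-64954066, both GRCm38 and on the minus strand.
Tlr1: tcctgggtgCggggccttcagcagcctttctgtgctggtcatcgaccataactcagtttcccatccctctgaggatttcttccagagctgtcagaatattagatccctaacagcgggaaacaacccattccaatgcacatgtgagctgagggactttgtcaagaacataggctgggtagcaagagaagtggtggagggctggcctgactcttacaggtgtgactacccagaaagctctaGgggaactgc
Tlr6: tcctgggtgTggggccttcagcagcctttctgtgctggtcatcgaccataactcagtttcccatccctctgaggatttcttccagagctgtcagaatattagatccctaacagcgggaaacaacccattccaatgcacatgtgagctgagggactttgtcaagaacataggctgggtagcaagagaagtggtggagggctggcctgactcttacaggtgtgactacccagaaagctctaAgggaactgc

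The sum of both genes still depends on how reads are divided, in so far as the genes differ in length. Summed, the libraries had 33.5, 33.0 and 36.6 TPM in cerebellum with IL-34 and 35.0, 35.8 and 35.0 TPM in cerebellum with CSF-1. The sums were 32.6, 32.8 and 29.5 TPM in forebrain with IL-34 and 28.4, 29.5 and 28.7 TPM in forebrain with CSF-1. All 6 cerebellar libraries stood above all 6 forebrain libraries. The 2 transcripts of Tlr1 split it unevenly: ENSMUST00000197315, with 57.8% of the gene's TPM, averaged 16.5 ± 2.48 TPM in cerebellum with CSF-1 and 10.6 ± 1.51 TPM in forebrain with CSF-1, and ENSMUST00000059349 averaged 9.07 ± 2.49 and 8.29 ± 1.21 TPM in these groups.

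**Figure D3:**
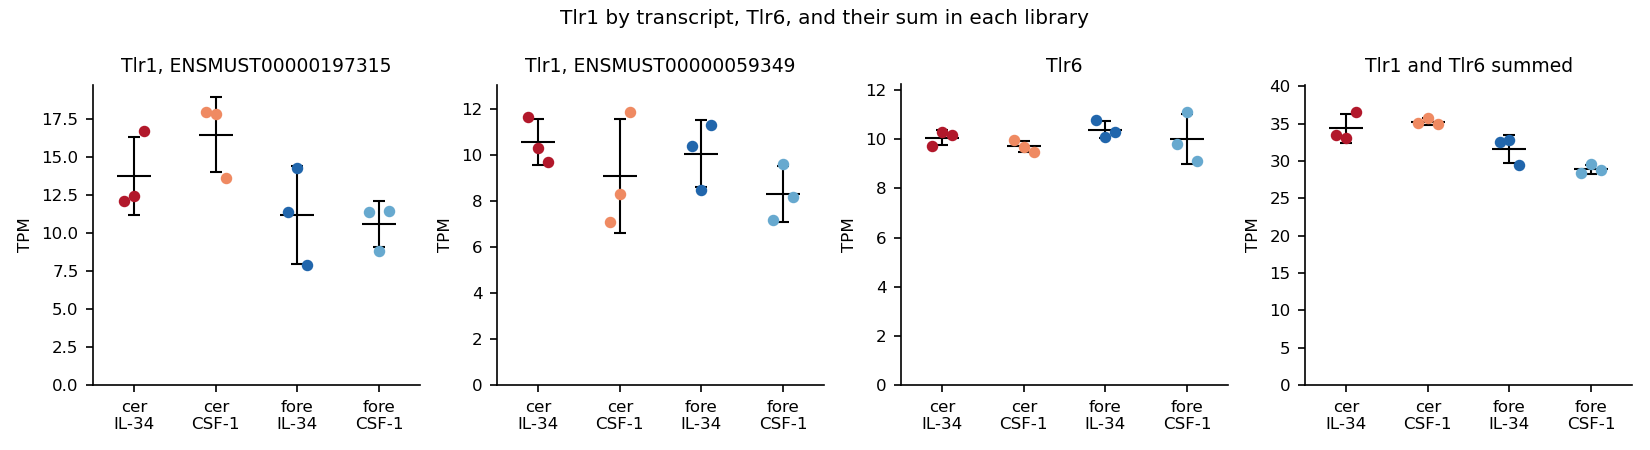
TPM of the 2 Tlr1 transcripts, of Tlr6 and of Tlr1 and Tlr6 summed, in each library of the 4 groups; bars are the mean and SD of 3. The sum lies at 33.0 to 36.6 TPM in the cerebellar libraries and 28.4 to 32.8 TPM in the forebrain libraries, without overlap.

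The comparison of ligands sets IL-34 against CSF-1. Averaged over both regions, Cd14 and Tlr2 rose with IL-34, and these 2 of 9 members tested compare with 13.4% of all genes (2.73% higher and 10.7% lower). Both are cell surface members, and 0 of 4 endosomal members passed in this mean as deposited. Of these, Tlr8 was at 0.17 (limma adjusted p = 0.0734) and passed under 5 of 11 other settings. With length and GC trends removed Tlr8 was at 0.26 (adjusted p = 0.00211). On the lower side, Tlr7 (-0.15, adjusted p = 0.0802) passed under 2 of 11 other settings and Tlr13 (-0.11, adjusted p = 0.111) under 1. Over all genes 339 were higher and 1328 lower in the values as deposited, and 704 were higher and 623 lower after median-of-ratios scaling. The median log2 fold change was 0.04 over the members and -0.07 over all genes.

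Cd14, a surface protein that hands lipopolysaccharide to TLR4 (ENSMUSG00000051439, chromosome 18, 36725067 to 36726798, minus strand), had 1051, 1077 and 1109 TPM in cerebellum with IL-34 and 913, 994 and 917 TPM in cerebellum with CSF-1. It had 1088, 1018 and 1022 TPM in forebrain with IL-34 and 974, 882 and 947 TPM in forebrain with CSF-1. Every library with IL-34 exceeded every library with CSF-1. The mean log2 fold change of both regions was 0.18 (SE 0.04, limma adjusted p = 0.0114), or 13.1% higher, and it held in every setting tried and with any single library left out (adjusted p 0.0117 to 0.0307 with a library left out). Within regions it was 0.20 in cerebellum (SE 0.05, adjusted p = 0.0348) and 0.16 in forebrain (SE 0.05, adjusted p = 0.184). No regional difference of Cd14 passed, with log2 fold changes of 0.05 with IL-34 and 0.01 with CSF-1 (SE 0.05 each). Cd14 TPM over Tlr4 TPM was 14.8 to 15.2 in cerebellum with IL-34 and 9.68 to 12.9 in the other 3 groups. Cd14 averages 1641 nt and Tlr4 4042 nt, so a trend along length need not cancel in this ratio. The ligand differences of Cd14 and Tlr4 in cerebellum were 0.20 and -0.22 as deposited. With length and GC trends removed they were 0.28 and -0.07.

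Tlr2 rose by 0.21 in the mean of both regions (SE 0.06, limma adjusted p = 0.0295). In forebrain its ligand difference was 0.31 (SE 0.08, adjusted p = 0.0917) with no overlap between the ligands, and in cerebellum 0.11 (SE 0.08, adjusted p = 0.353) with overlap. The mean difference lost its call when any one of 8 libraries was left out, namely cerebellum IL-34 replicates 1 and 3, cerebellum CSF-1 replicates 1 and 3, forebrain IL-34 replicates 2 and 3 and forebrain CSF-1 replicates 1 and 2 (0.18 to 0.22, adjusted p 0.0519 to 0.0710). With length and GC trends removed it was 0.31 (adjusted p = 0.000888), with 0.36 in forebrain and 0.25 in cerebellum (adjusted p = 0.00772 and 0.0292).

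In forebrain alone 0 of 9 members passed with limma, against 1.2% of all genes (0.427% higher and 0.773% lower), while 3 had an unadjusted p under 0.05: Tlr2, Cd14 and Tlr8, all higher with IL-34. Tlr8 stood at 0.33 (SE 0.08, adjusted p = 0.0897), and its libraries with IL-34 did not overlap those with CSF-1. It passed under 5 of 12 other settings, among them median-of-ratios scaling (0.37, adjusted p = 0.0205) and removal of length and GC trends (0.34, adjusted p = 0.00911). Over all genes 53 were higher and 96 lower as deposited, and 140 and 109 after median-of-ratios scaling.

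In cerebellum 2 of 9 members passed, Cd14 higher and Tlr7 lower with IL-34, against 12.8% of all genes (3% higher and 9.82% lower). Tlr7 was at -0.28 (SE 0.07, limma adjusted p = 0.0365). Tlr3 at -0.27 (adjusted p = 0.0586), Tlr13 at -0.18 (adjusted p = 0.0810) and Tlr4 at -0.22 (adjusted p = 0.0840) lay on the same side with no call, and Tlr8 was at 0.01 (adjusted p = 0.922). These values stand against a median of -0.10 over all genes, and over all genes 373 were higher and 1220 lower as deposited, and 693 and 505 after median-of-ratios scaling. By transcript length, the median over genes was 0.42 under 800 nt and -0.15 at 3000 nt or more. All members but Cd14 (1641 nt) and Tlr1 (2923 nt) average over 3000 nt. Among genes measured with transcripts of 1000 nt or more the median was -0.14 before and -0.00 after the length and GC trends were removed. After that removal Tlr7 was at -0.10 (adjusted p = 0.0940), Tlr3 at -0.11 (adjusted p = 0.189), Tlr4 at -0.07 (adjusted p = 0.249) and Tlr13 at -0.00 (adjusted p = 0.991), while Cd14 was at 0.28 (adjusted p = 0.00139). The Tlr7 call was lost without cerebellum IL-34 replicate 1 or 2 (adjusted p = 0.0942 and 0.129), without cerebellum CSF-1 replicate 1, 2 or 3 (adjusted p = 0.129, 0.0588 and 0.0516) and without forebrain CSF-1 replicate 2 (adjusted p = 0.0508). The Cd14 call in cerebellum was lost without cerebellum IL-34 replicate 1, 2 or 3 (adjusted p = 0.0564, 0.102 and 0.0714) and without cerebellum CSF-1 replicate 1 or 3 (adjusted p = 0.117 and 0.0857).

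**Figure D4:**
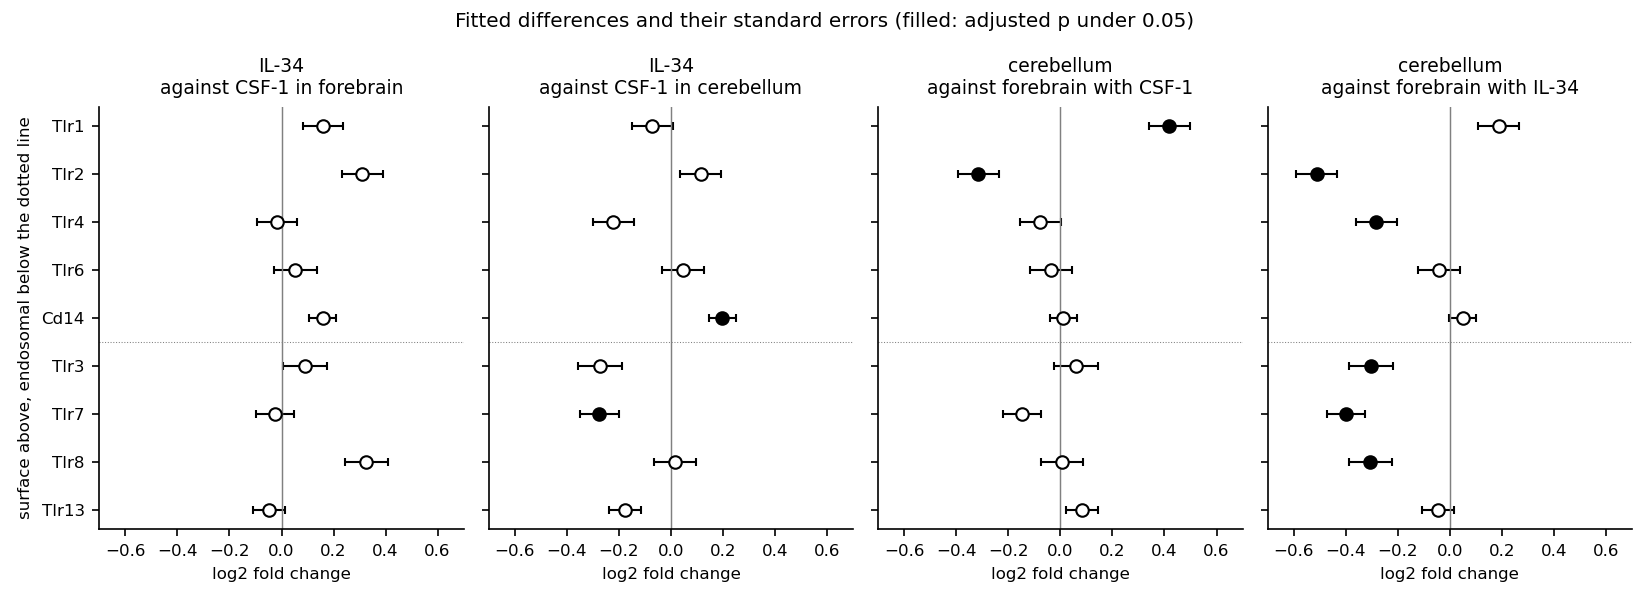
Log2 fold change and standard error of the 9 members tested in the 4 comparisons within a region or a ligand, cell surface members above the dotted line and endosomal members below; filled circles passed at an adjusted p under 0.05. The comparison of regions with IL-34 holds 5 filled circles, all on the lower side, and the ligand comparison in forebrain holds 0.

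Whether the ligand difference itself differed between regions was tested as an interaction. None of the 9 members passed with limma, against 0.145% of all genes (0.121% higher and 0.0242% lower in cerebellum), and 3 had an unadjusted p under 0.05: Tlr3 (-0.36, SE 0.12, adjusted p = 0.319), Tlr8 (-0.31, SE 0.11, adjusted p = 0.341) and Tlr7 (-0.25, SE 0.10, adjusted p = 0.379). So the regional differences that passed with IL-34 and missed the threshold with CSF-1 were not shown to differ between the ligands. With length and GC trends removed the same 3 values were -0.21, -0.15 and -0.09.

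Tlr13 (ENSMUSG00000033777, chromosome X, 106143204 to 106160493, plus strand) averaged 224 ± 7.49 TPM in cerebellum with IL-34, 254 ± 17.3 TPM in cerebellum with CSF-1, 232 ± 16.3 TPM in forebrain with IL-34 and 239 ± 5.32 TPM in forebrain with CSF-1. No comparison of Tlr13 passed as deposited. In cerebellum its libraries with IL-34 lay below those with CSF-1 without overlap (-0.18, limma adjusted p = 0.0810). This difference passed with transcripts of 1000 nt or more (adjusted p = 0.0437), and was -0.00 with length and GC trends removed. The mean ligand difference of Tlr13 passed with library weights (adjusted p = 0.0399) and without forebrain IL-34 replicate 1 (adjusted p = 0.0380). Tlr9, a receptor for unmethylated CpG DNA (ENSMUSG00000045322, chromosome 9, 106222598 to 106226883, plus strand), was near the floor of the measurement, at 1.06, 0.718 and 0.929 TPM in cerebellum with IL-34, 0.919, 0.888 and 0.906 TPM in cerebellum with CSF-1, 0.513, 0.801 and 0.290 TPM in forebrain with IL-34 and 0.676, 0.583 and 1.11 TPM in forebrain with CSF-1. It was above 0 in all 12 libraries, and its groups overlapped except cerebellum with CSF-1 against forebrain with IL-34.

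The surface receptors Tlr1, Tlr2, Tlr4 and Tlr6 summed to 250.3, 227 and 249.5 TPM in cerebellum with IL-34 and 252, 247 and 236 TPM in cerebellum with CSF-1. They summed to 322, 313 and 306 TPM in forebrain with IL-34 and 259, 272 and 292 TPM in forebrain with CSF-1. The endosomal receptors summed to 363, 361 and 388 TPM in cerebellum with IL-34, 457, 407 and 405 TPM in cerebellum with CSF-1, 450.0, 404 and 407 TPM in forebrain with IL-34 and 402, 423 and 430.0 TPM in forebrain with CSF-1. Endosomal sums were lowest in all 3 cerebellar IL-34 libraries, while surface sums were highest in all 3 forebrain IL-34 libraries. The cerebellar IL-34 libraries are also those with the most TPM in short transcripts. With length and GC trends removed, the largest parts of the endosomal sum were at -0.00 (Tlr13) and -0.10 (Tlr7) for the ligands in cerebellum and at 0.07 (Tlr13) and -0.24 (Tlr7) for the regions with IL-34. As a share of receptor TPM, which does not depend on the scaling of a library, the surface receptors took 39.5 ± 1.11% in cerebellum with IL-34 and 36.7 ± 1.15% in cerebellum with CSF-1. In forebrain they took 42.8 ± 0.964% with IL-34 and 39.6 ± 0.728% with CSF-1. Within each region the share was higher with IL-34, and under each ligand it was lower in cerebellum, in all cases without overlap. Tlr2 over Tlr4, another such ratio, was 1.89 ± 0.167 in cerebellum with IL-34 and 1.51 ± 0.232 in cerebellum with CSF-1, and in forebrain 2.22 ± 0.197 with IL-34 and 1.77 ± 0.112 with CSF-1. Trends along length and GC content need not cancel in the share or in this ratio, and neither was computed with them removed.

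**Figure D5:**
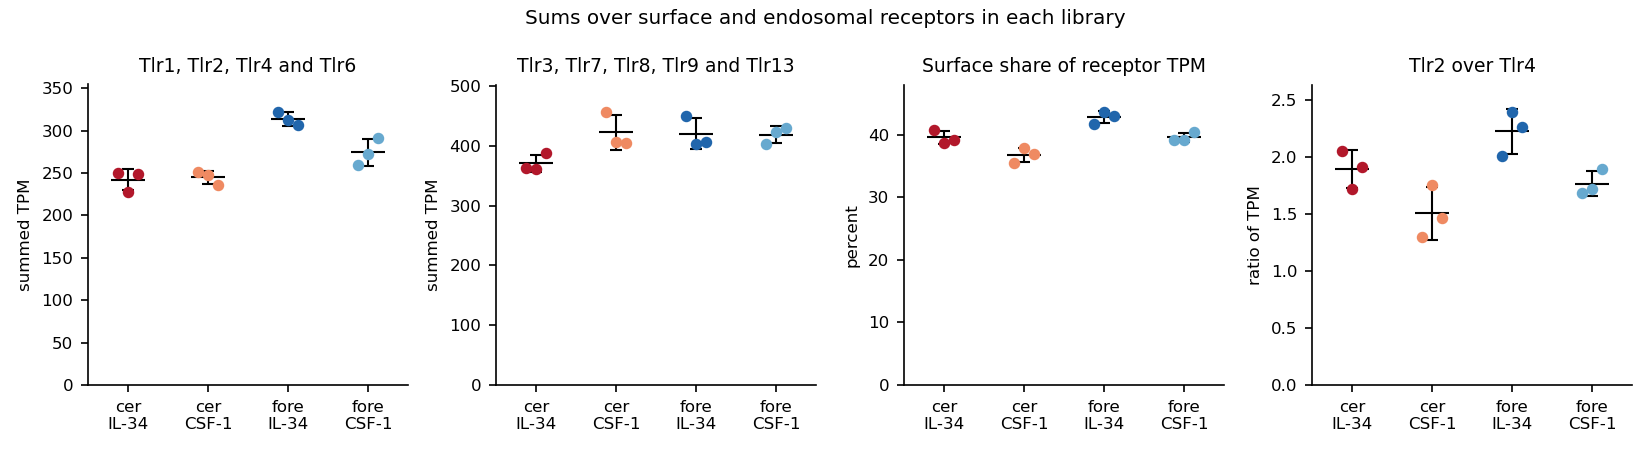
Summed TPM of surface receptors and of endosomal receptors, the surface share in percent and the ratio of Tlr2 to Tlr4 TPM, in each library of the 4 groups; bars are the mean and SD of 3. The surface share is highest in forebrain with IL-34 (41.7 to 43.6%) and lowest in cerebellum with CSF-1 (35.5 to 37.8%).

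Over the 12 libraries, which share the 4 groups and the uneven length effect, the members varied together in part. On log2(TPM + 1), Pearson's r was 0.95 for Tlr4 and Tlr7, 0.81 for Tlr4 and Tlr3, 0.75 for Tlr2 and Tlr8 and -0.52 for Tlr1 and Tlr2, given as descriptions only. Of 8810 genes with a mean of at least 5 TPM, those most like Tlr2 were Ednrb (r = 0.97), the interferon-induced gene Mx1 (0.96) and Cybb (0.96), the catalytic subunit of the phagocyte oxidase, which averaged 340.0, 303, 498 and 369 TPM in cerebellum with IL-34, cerebellum with CSF-1, forebrain with IL-34 and forebrain with CSF-1. Cd14 was most like Map1lc3b (0.91), an autophagosome protein, Ptafr (0.91) and Fam20c (0.89). Tlr1 was most like the autophagy receptor Sqstm1 (0.92), the catalase gene Cat (0.92) and Mmp14 (0.92). Closest to Tlr7 were Morf4l2, Cdc42 and Gdi2 (0.98 each), to Tlr4 Acsl5 (0.98), Txnl1 (0.97) and Adss (0.95), and to Tlr3 C1galt1c1 (0.96), Abi1 (0.94) and Srsf10 (0.93). Closest to Tlr8 were Ing4 (0.96), Mfsd7b (0.91) and Sgk1 (0.90), to Tlr13 Fer (0.97), Stt3b (0.96) and Acap2 (0.95), and to Tlr6 Rusc1 (0.85), Gtpbp8 (0.82) and Lta4h (0.79).

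Promoter windows of 300 bases (250 before and 50 after a RefSeq start, GRCm38.p6) were found for 7 of the 10 members, 9 windows in all, with 2 each for Tlr1 and Tlr6. Not among them were Tlr4, Tlr7 and Cd14. Those of 4 genes that differed between the regions are printed, with motif matches in capitals: Tlr1, which was higher in cerebellum with CSF-1, and Tlr2, Tlr3 and Tlr8, which were lower in cerebellum with IL-34. The first Tlr1 window lies at chr5:64933509-64933808, Tlr2 at chr3:83841559-83841858, Tlr3 at chr8:45410331-45410630 and Tlr8 at chrX:167264280-167264579, all on the minus strand and written 5′ to 3′ in the sense direction.
Tlr1: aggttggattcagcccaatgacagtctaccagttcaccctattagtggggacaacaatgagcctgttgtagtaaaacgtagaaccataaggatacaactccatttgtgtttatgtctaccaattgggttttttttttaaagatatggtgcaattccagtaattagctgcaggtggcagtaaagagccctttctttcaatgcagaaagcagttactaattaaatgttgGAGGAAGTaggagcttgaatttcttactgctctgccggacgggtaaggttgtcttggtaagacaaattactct
Tlr2: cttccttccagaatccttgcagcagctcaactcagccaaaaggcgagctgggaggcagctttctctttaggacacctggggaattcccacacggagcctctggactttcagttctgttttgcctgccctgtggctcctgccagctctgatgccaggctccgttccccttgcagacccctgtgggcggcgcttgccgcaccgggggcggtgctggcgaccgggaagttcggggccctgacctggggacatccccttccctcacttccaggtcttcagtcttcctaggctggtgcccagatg
Tlr3: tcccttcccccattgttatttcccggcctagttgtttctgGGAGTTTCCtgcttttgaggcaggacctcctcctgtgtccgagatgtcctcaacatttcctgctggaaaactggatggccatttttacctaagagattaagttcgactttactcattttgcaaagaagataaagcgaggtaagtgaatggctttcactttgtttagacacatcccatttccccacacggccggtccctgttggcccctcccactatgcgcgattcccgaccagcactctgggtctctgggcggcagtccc
Tlr8: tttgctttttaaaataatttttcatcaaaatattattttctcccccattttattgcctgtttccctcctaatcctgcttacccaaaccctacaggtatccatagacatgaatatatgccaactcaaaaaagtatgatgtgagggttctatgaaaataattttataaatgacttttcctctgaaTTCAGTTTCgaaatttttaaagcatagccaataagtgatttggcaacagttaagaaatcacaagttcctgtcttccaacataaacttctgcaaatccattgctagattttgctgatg

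The capitals mark a match to GAGGAAGT, a site of the myeloid factor PU.1, at -23 in Tlr1, to GGANTTTCC, an NF-kB core, at -210 in Tlr3, and to GAAANNGAA, an interferon response element, at -67 on the other strand in Tlr8. Both strands were searched, also for the AP-1 site TGANTCA. Of 32851 windows of the same length, 3.2% held the PU.1 letters, 1.25% the NF-kB letters, 8.56% the interferon letters and 7.81% the AP-1 letters. Tlr6 had 2 overlapping interferon matches, at -115 and -109, and Tlr9 a PU.1 match at 11 after the start and an AP-1 match at -58. The windows of Tlr2 and Tlr13, and the second windows of Tlr1 and Tlr6, held none of these letters. A match is a stretch of letters and not a measured binding site. Only these forms of each motif were searched, so a window without a match may still hold another form.

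The genes around the receptors were counted in lists drawn from general knowledge of the pathway. Of 14 accessory and ligand-handling genes 10 were tested, and their median log2 fold change was -0.17 in the mean ligand difference and -0.19 between regions with IL-34, beside -0.07 and -0.02 over all genes. In the mean ligand difference 1 rose and 4 fell with IL-34, beside 2.73% of all genes higher and 10.7% lower. After median-of-ratios scaling 1 was higher and 2 lower. With length and GC trends removed 1 was higher and 4 lower, of 9 tested. Ly86, which encodes the MD-1 partner of RP105, rose (0.25, limma adjusted p = 0.0213), and the RP105 gene Cd180, a relative of Tlr4 that restrains it, fell (-0.25, adjusted p = 0.0238). The scavenger receptor gene Msr1 (-0.22, adjusted p = 0.00427) and the integrin gene Itgam (-0.32, adjusted p = 0.00484) fell as well. In cerebellum 2 rose and 3 fell with IL-34, and in forebrain 0 passed, beside 12.8% and 1.2% of all genes called. Ly96, the MD-2 partner of TLR4, was among those that rose in cerebellum, at 40.4 ± 15.6 TPM with IL-34 and 14.3 ± 5.36 TPM with CSF-1 (1.43, adjusted p = 0.0403). Its transcripts average 634 nt, within the class under 800 nt whose median over genes was 0.42 in this contrast, and it was not measured with transcripts of 1000 nt or more. Under both ligands 3 of the 10 were lower in cerebellum and 0 higher: Msr1, the lipid receptor gene Cd36 and Mrc1. Of all genes 8.22% were lower in cerebellum with IL-34 and 3.42% with CSF-1. Cd36, a partner of TLR2 and TLR6, had 1606 ± 116 TPM in cerebellum with IL-34 and 2243 ± 120.0 TPM in forebrain with IL-34 (-0.48, adjusted p = 0.000943). Msr1 had 613 ± 36.9 TPM in cerebellum with IL-34 and 938 ± 41.5 TPM in forebrain with IL-34 (-0.61, adjusted p = 3.83e-05).

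Of 28 genes of receptor trafficking and processing, all tested, 5 rose and 3 fell with IL-34 in the mean of both regions. Over all genes 2.73% were higher and 10.7% lower in this mean. The cathepsin genes Ctss (0.27, limma adjusted p = 0.000223) and Ctsl (0.30, adjusted p = 0.00166), whose proteases can trim endosomal receptors, and Pld3 (0.18, adjusted p = 0.00963), an endosomal nuclease, rose. Lrrc59, which helps receptors leave the endoplasmic reticulum, fell (-0.26, adjusted p = 0.000849). After median-of-ratios scaling 11 were higher and 2 lower, and with length and GC trends removed 13 were higher and 2 lower. In forebrain 2 rose and 1 fell with IL-34, and in cerebellum 5 rose and 4 fell, beside 1.2% and 12.8% of all genes called. Between regions with IL-34, 2 were higher and 7 lower in cerebellum, and with CSF-1 2 were higher and 2 lower. Beside these stand 13.5% of all genes called with IL-34 and 6.71% with CSF-1. With length and GC trends removed the regional counts were 6 higher and 6 lower with IL-34, and 3 higher and 6 lower with CSF-1. Ctsk (3.48 ± 1.01 TPM in cerebellum with IL-34 and 15.7 ± 0.175 TPM in forebrain with IL-34, -1.92, adjusted p = 3.83e-05) and Pld4 (-0.39, adjusted p = 0.00234) were lower in cerebellum, and Hsp90b1, the gene of the chaperone gp96 that folds Toll-like receptors, was lower too (-0.36, adjusted p = 0.00535). Its partner Cnpy3 was higher in cerebellum with CSF-1 (0.32, adjusted p = 0.0136). Rab7b was higher in cerebellum under both ligands, at 0.36 with IL-34 (limma adjusted p = 0.00113) and 0.21 with CSF-1 (adjusted p = 0.0282). Unc93b1 averaged 681 ± 14.9 TPM in cerebellum with IL-34, 684 ± 10.4 TPM in cerebellum with CSF-1, 698 ± 41.4 TPM in forebrain with IL-34 and 670.3 ± 29.0 TPM in forebrain with CSF-1. It was not called in any comparison as deposited, and with length and GC trends removed Unc93b1 was higher with IL-34 in forebrain (0.12, adjusted p = 0.0143), in cerebellum (0.11, adjusted p = 0.0113) and in the mean (0.12, adjusted p = 0.000764).

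Of the 6 adaptor genes, Myd88 averaged 101 ± 3.96, 109 ± 3.91, 114 ± 5.83 and 114 ± 4.88 TPM in cerebellum with IL-34, cerebellum with CSF-1, forebrain with IL-34 and forebrain with CSF-1, and Ticam1, which encodes TRIF, averaged 5.93 ± 0.789, 7.29 ± 1.25, 6.24 ± 0.213 and 7.21 ± 1.19 TPM in the same order. Of the list, only Pik3ap1, the gene of the adaptor BCAP, passed in the comparisons as deposited. It fell with IL-34 in cerebellum (-0.31, limma adjusted p = 0.0151) and in the mean (-0.22, adjusted p = 0.0124), and was higher in cerebellum with CSF-1 (0.33, adjusted p = 0.0125). Of 26 kinase, ubiquitin ligase and IRF genes, 1 rose and 2 fell with IL-34 in the mean, 0 rose and 3 fell in cerebellum, and 0 passed in forebrain, beside the 13.4% and 12.8% of all genes called in the mean and in cerebellum. The balance turned with the setting: 2 were higher and 0 lower in each of these contrasts after median-of-ratios scaling, and removal of length and GC trends left 4 higher and 1 lower in the mean and 5 higher and 2 lower in cerebellum. Irf5, a transcription factor downstream of TLR7, fell in the mean (-0.17, adjusted p = 0.0222), a call that was lost with median-of-ratios scaling and kept with trends removed (-0.08, adjusted p = 0.0105). Between regions, 0 of 26 passed with CSF-1, and with IL-34 Irf7, the factor that drives interferon genes behind TLR7 and TLR9, was lower in cerebellum (572 ± 80.1 TPM in cerebellum and 841 ± 37.6 TPM in forebrain, -0.56, adjusted p = 0.00239) and Ube2v1 was higher (0.37, adjusted p = 0.00652). Of 24 negative regulators tested, 2 rose and 3 fell with IL-34 in the mean, among them Atf3, which is also on a list of dissociation stress genes, higher (0.23, adjusted p = 0.0111) and the kinase gene Lyn lower (-0.22, adjusted p = 0.0103). In cerebellum 0 rose and 3 fell with IL-34, and in forebrain 0 passed. Beside these counts, 13.4% of all genes were called in the mean, 12.8% in cerebellum and 1.2% in forebrain. Between regions 1 was higher and 1 lower with CSF-1, and 0 higher and 1 lower with IL-34. Of all genes 6.71% were called between regions with CSF-1 and 13.5% with IL-34. Here too the balance turned: in cerebellum 2 were higher and 1 lower with median-of-ratios scaling and 4 higher and 2 lower with trends removed, and in the mean 3 higher and 1 lower, and 7 higher and 2 lower, under these settings.

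Of 35 genes that Toll-like receptor ligands induce in macrophages, 30 were tested. With IL-34, 2 were higher and 13 lower in cerebellum than in forebrain, beside 5.27% of all genes higher and 8.22% lower. With CSF-1 1 was higher and 8 lower, beside 3.29% of all genes higher and 3.42% lower. The median log2 fold change over the list was -0.27 with IL-34 and -0.32 with CSF-1, beside -0.02 and 0.03 over all genes. Lcn2, an iron-binding antibacterial protein, had 7.74 ± 0.398 TPM in cerebellum with IL-34 and 26.3 ± 1.90 TPM in forebrain with IL-34 (-1.64, limma adjusted p = 2.48e-06). The chemokine gene Ccl2 had 17.8 ± 1.71 TPM in cerebellum with IL-34 and 39.0 ± 4.52 TPM in forebrain with IL-34 (-1.09, adjusted p = 0.000121), and Marco, a scavenger receptor gene, 16.03 ± 2.47 and 31.8 ± 1.84 TPM in these groups (-0.96, adjusted p = 0.000585). Ptgs2, the inducible cyclooxygenase gene, ran the other way, at 17.4 ± 1.09 TPM in cerebellum with IL-34 and 11.4 ± 0.436 TPM in forebrain with IL-34 (0.57, adjusted p = 0.00108). With IL-34 against CSF-1, 3 rose and 3 fell in the mean of both regions, 1 rose and 3 fell in cerebellum, and 0 rose and 3 fell in forebrain. Of all genes 13.4%, 12.8% and 1.2% were called in these contrasts. Ccl2 (-0.91, adjusted p = 7.72e-05), Ptgs2 (-0.57, adjusted p = 0.000206) and Plaur (-0.50, adjusted p = 0.000430) fell, and Cd83 rose (0.46, adjusted p = 0.00107). Tnf, which was not called in any comparison as deposited and fell with IL-34 in the mean with trends removed (-0.22, adjusted p = 0.0410), averaged 35.6 ± 3.42, 46.0 ± 3.13, 41.9 ± 2.13 and 48.4 ± 9.13 TPM in cerebellum with IL-34, cerebellum with CSF-1, forebrain with IL-34 and forebrain with CSF-1. Beside these stand 12 genes listed for RNA quality and dissociation stress. They summed to 2850 to 3016 TPM in cerebellum with IL-34 and 3181 to 3318 TPM in cerebellum with CSF-1. In forebrain they summed to 2750.2 to 2948 TPM with IL-34 and 3069 to 3191 TPM with CSF-1, so that their sum was lower with IL-34. Much of the sum was Hspa8, which averaged 1518 TPM with IL-34 and 1809 TPM with CSF-1 in cerebellum. In forebrain Hspa8 averaged 1450 TPM with IL-34 and 1741 TPM with CSF-1. Genes of this list did not move the same way. In the mean 4 fell with IL-34 (Hspa8, Hsph1, Dnaja1 and Hspa1a), while Egr1 (0.64, limma adjusted p = 0.00162) and Atf3 rose. Over all genes 2.73% were higher and 10.7% lower in this mean. Between regions, Egr1 was higher in cerebellum with CSF-1 (0.65, limma adjusted p = 0.0122) and with IL-34 (0.67, adjusted p = 0.00660). Dnaja1 was lower in cerebellum with IL-34 (-0.25, adjusted p = 0.0391), and no other gene of this list passed between regions. Of all genes 6.71% were called between regions with CSF-1 and 13.5% with IL-34. The part of these genes in the ligand and regional differences was not tested.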

How the data were processed

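The deposited table gives TPM for each Ensembl transcript, as the authors computed it, and holds no counts. The tool and build named in the submitters' processing notes are kallisto 0.43.0 and GRCm38. A SMART-Seq v4 kit produced the cDNA, per the labels' protocols, and the extraction text speaks of human tissue while every other label is mouse. Filters and bias correction are not stated in these sources. Since TPM corrects for length and sets every library's total to 1000000, it keeps no depth, and the replicate libraries alone give the precision. kallisto assigns reads to transcripts by sequence, so near-identical copies share reads in ways these values cannot resolve.

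TPM was summed per gene. Tests are two-sided and come from limma (version 3.58.1, R 4.3.3), fitted to log2(TPM + 1) with 4 group means, 8 residual degrees of freedom and a variance trend, and tested on simulated data. This scale understates the change of low genes. The fit took 12419 genes that reached 1 TPM in 3 or more of the 12 libraries, p-values were adjusted over all of them by Benjamini-Hochberg, and a call needed an adjusted p below 0.05. Comparisons within a region or a ligand share libraries. Lengths and coordinates came from GENCODE M21 (98.6% of 115879 transcripts matched), and promoters from RefSeq. No pair of libraries held identical values. Genes named beside the members are up to 4 of each list with the smallest p among those called, and the 3 most correlated genes for each member. Other list genes, among them Unc93b1, Myd88, Ticam1, Tnf and Hspa1a, were named where they were needed beside a result. The members, lists and rules were chosen with earlier results of these data known. Alternatives covered the pseudocount, the filter, scaling, the variance model, library weights, the replicate block, the libraries in the fit, transcript length and leaving out each library.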

Additional observations from a re-analysis of the deposited data

How the results depend on the processing

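Of 1278 recomputed fold changes of members, 1181 kept their side of the threshold, 70 lost a call, 27 gained one and 0 reversed as a call. Some that were not called changed sign. Tlr1 for the ligands in cerebellum, for example, was at -0.07 as deposited and between -0.10 and 0.08 over the other settings. Cd14 with IL-34 in the mean of both regions, Tlr1 between regions with CSF-1, and Tlr2 and Tlr7 between regions with IL-34 were called in every setting. The number of members called moved as follows. For IL-34 against CSF-1 in forebrain, where 0 passed, it was 2 with median-of-ratios scaling, library weights or transcripts of 1000 nt or more, 1 with quantile normalization, and 3 with length and GC trends removed. In cerebellum, where 2 passed, it was 0 with no filter on low values, quantile normalization, a variance without trend or the compared groups alone, 1 with median-of-ratios scaling and 5 with transcripts of 1000 nt or more. For the mean of both regions, where 2 passed, it was 1 with no filter or a variance without trend, 5 with library weights and 4 with transcripts of 1000 nt or more. Between regions with CSF-1, where 2 passed, it was 1 with no filter, a variance without trend or the compared groups alone, and 3 with length and GC trends removed, where Tlr7 passed as well. With IL-34, where 5 passed, it was 2 with no filter and 3 with the compared groups alone. Leaving out each library in turn gave 0 in forebrain, 0 to 2 in cerebellum, 1 to 3 for the mean, 0 for the interaction, 1 to 2 between regions with CSF-1 and 2 to 5 with IL-34. Where the cause of a move is not the smaller number of libraries or genes in the fit, it was not tested.

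Calls over all genes tested ranged, over settings that test 9666 to 25599 genes, from 0 to 892 for forebrain, 778 to 2570 for cerebellum, 1106 to 2725 for the mean, 1 to 22 for the interaction, 456 to 1804 for the regions with CSF-1 and 1175 to 2336 with IL-34.

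No pairing of libraries by replicate number was seen. Deviations of libraries with the same number correlated between -0.45 and 0.46, over 0.1 in 5 of 18 pairs, against 9 of 36 pairs with different numbers. With 3 libraries in each group this check cannot exclude shared cultures. The labels do not say whether a number marks the same culture. With the replicate number as a block, 0 members passed in forebrain, 0 in cerebellum, 1 for the mean, 0 for the interaction, 1 between regions with CSF-1 and 3 with IL-34.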
